A study of Rattus norvegicus with 4 samples.

Results

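The genes described here are 10 inflammatory cytokines and NF-kB genes, followed through the white blood cells of rats. They are the cytokine genes Il1a, Il1b and Tnf, the inflammasome sensor Nlrp3, the regulators Nfkbia, Nfkbiz and Tnfaip3, and the transcription factor subunits Nfkb1, Nfkb2 and Relb. Members were found by symbol among the 25340 genes listed for each library, where each of the 10 has 1 entry. Their UMIs (barcoded molecules, counted 1 time however often they were read) were summed over barcodes gated by marker genes into classical monocytes, nonclassical monocytes, B cells, T cells and NK cells. A level is given as CPM, the gene's UMIs as a share of the UMIs of that class in that library, scaled to counts per 1000000.

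Blood was profiled by droplet single-cell RNA-seq, with 1 library in each of 4 groups. SCI stands for rats with a spinal cord injury made by Allen's method, a weight drop on the cord. MSC-i.t rats also received umbilical cord mesenchymal stromal cells (MSC) intrathecally, into the fluid around the cord, at 10000000 cells/kg, and MSC-i.v rats received them intravenously at 30000000 cells/kg. Each treated group was dosed 2 times, at 72 hours and at 7 days after injury. Sham is the control group by its name, although the study's design text counts all 40 rats, 10 in each of the 4 groups, as injured. What SCI and Sham rats received in place of cells, the strain, sex and age of the rats, the number of rats behind a library and the time of the blood draw are not given in the sources used here. The deposited data set of SCI carries another time tag in its name than those of the other 3 libraries, so injury and that tag cannot be told apart in any comparison that involves SCI. With 1 library per group no test between groups is possible. Intervals are exact 95% intervals and cover counting error only. Each ratio sets 1 library against another and says nothing of the spread between rats.

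NF-kB is a family of transcription factor dimers that are held in the cytoplasm by inhibitor proteins until receptors for microbial products or cytokines trigger the destruction of the inhibitor. The freed dimers switch on cytokine genes and also genes of their own inhibitors, so a cell that has used the pathway makes more Nfkbia and Tnfaip3 RNA. In blood, monocytes and neutrophils are known as the main makers of interleukin-1 beta, which NLRP3 inflammasomes help to release in active form, while B cells use the alternative branch of NF-kB2 and RelB.

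The libraries held 63133881 UMIs in SCI, 80115646 in MSC-i.t, 91124523 in MSC-i.v and 71648050 in Sham. The kept barcodes had at least 500 UMIs and 200 genes and numbered 8527, 11338, 16998 and 10573 in the same order of libraries. The gates held 60, 122, 392 and 334 classical monocyte barcodes, 154, 208, 461 and 262 nonclassical ones, 864, 1689, 3048 and 1751 B barcodes, 5673, 7077, 8585 and 5552 T barcodes, and 133, 140, 259 and 209 NK barcodes. The gates select on markers, and each class held its own, for example 8311 to 9350 CPM of classical monocyte markers in the classical gate against 5.01 to 17 CPM in the T gate. Markers of other cells were not evenly spread over libraries. Basophil and mast cell markers reached 837 CPM in the NK gate of Sham, and neutrophil markers reached 56.5 CPM in the T gate of Sham. Plasma cell markers in the B gate were at 704 CPM in SCI, 298 in MSC-i.t, 263 in MSC-i.v and 401 in Sham. Platelet markers were at 1508 to 2524 CPM in the classical monocyte gate. Erythroid markers, mostly hemoglobin RNA, were at 12083 CPM in SCI, 18160 in MSC-i.t, 47348 in MSC-i.v and 29434 in Sham in the T gate, and at 1908, 1625, 27399 and 14424 CPM in the classical monocyte gate. The part of these other cells in the results below was not tested, except where a value without them is given. Pairs of libraries shared 28 to 51 kept barcode sequences, against 13.3 to 28.4 if barcodes were drawn evenly from the list. RNA outside cells was read from barcodes with 1 to 100 UMIs.

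The promoters of the 3 members with the most UMIs in the gated classes, Nfkbia, Nfkb1 and Nfkb2, are printed because these genes carry most of the counts below and their RNA is known to be made under NF-kB control. Each runs 250 bases before to 50 bases after the gene start, 5′ to 3′ on the gene's strand, from RefSeq on build GRCr8. The counts used another build, so sequences were matched to members by symbol alone. Nfkbia lies at chr6:78597023-78597322 on the minus strand, Nfkb1 at chr2:226805413-226805712 on the minus strand and Nfkb2 at chr1:255108124-255108423 on the plus strand. Capitals mark the match to the kappa B decamer consensus, searched on both strands.
Nfkbia: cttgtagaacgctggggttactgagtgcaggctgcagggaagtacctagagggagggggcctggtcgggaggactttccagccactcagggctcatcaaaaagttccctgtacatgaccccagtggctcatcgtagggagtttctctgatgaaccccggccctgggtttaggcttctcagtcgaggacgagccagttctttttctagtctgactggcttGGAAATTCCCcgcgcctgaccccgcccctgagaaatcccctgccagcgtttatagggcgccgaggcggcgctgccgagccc
Nfkb1: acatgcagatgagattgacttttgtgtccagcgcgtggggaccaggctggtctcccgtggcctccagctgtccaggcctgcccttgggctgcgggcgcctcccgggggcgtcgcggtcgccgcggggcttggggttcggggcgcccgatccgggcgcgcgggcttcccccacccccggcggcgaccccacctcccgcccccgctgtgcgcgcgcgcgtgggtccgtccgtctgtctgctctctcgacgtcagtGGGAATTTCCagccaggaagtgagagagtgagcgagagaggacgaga
Nfkb2: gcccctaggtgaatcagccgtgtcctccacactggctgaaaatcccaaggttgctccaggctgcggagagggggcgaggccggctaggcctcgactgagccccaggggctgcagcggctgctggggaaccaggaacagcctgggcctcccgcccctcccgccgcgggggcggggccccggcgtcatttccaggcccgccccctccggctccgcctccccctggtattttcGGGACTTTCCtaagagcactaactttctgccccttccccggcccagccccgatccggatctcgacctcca
The match began 31 bases before the gene start in Nfkbia, 20 bases before it in Nfkb2 and 4 bases after it in Nfkb1. Of the 9 members with a promoter entry, 5 held the consensus at least once: these 3, Nfkbiz with 1 match and Tnfaip3 with 3 matches. It was present in 1400 of all 33469 promoters of the same length (4.18%), and 0.469% held 2 or more matches. Il1a, Il1b, Tnf and Nlrp3 had no match in this window, which says only that these letters are not there. No promoter entry was matched for Relb.

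Among the cytokines, only Il1b was counted at more than single molecules. Il1a, which encodes interleukin-1 alpha, had 0 UMIs in every gated class and library. In classical monocytes a count of 0 allows up to 5.78 CPM in SCI, 2.79 in MSC-i.t, 1.22 in MSC-i.v and 1.05 in Sham, at 3 counts per library. Tnf, the gene of tumour necrosis factor, had 1 UMI, in the T gate of Sham. Il1b, the gene of interleukin-1 beta, had 796 UMIs in the gated classes. Its level in classical monocytes was 79.0 CPM (56.7–107) in SCI, 66.0 (51.6–83.3) in MSC-i.t, 68.2 (58.2–79.3) in MSC-i.v and 73.7 (64.1–84.4) in Sham. These 4 intervals overlapped. In nonclassical monocytes it was 31.4 CPM (19.5–48.1) in SCI, 48.9 in MSC-i.t, 45.5 in MSC-i.v and 49.8 (37.8–64.3) in Sham, lowest in SCI but with overlapping intervals. The level in classical over nonclassical monocytes was 2.51-fold in SCI, 1.35-fold in MSC-i.t, 1.5-fold in MSC-i.v and 1.48-fold in Sham. The interval of this contrast lay above 0 on the log2 scale in SCI, MSC-i.v and Sham, but not in MSC-i.t (log2 0.43, -0.12 to 1.00). In B cells Il1b was at most 1.12 CPM, in NK cells at most 1.39 CPM and in T cells 0.342 to 1.13 CPM. Those lymphocyte levels stood below the RNA outside cells, where Il1b was at 1.63 CPM in SCI, 2.95 in MSC-i.t, 5.57 in MSC-i.v and 6.18 in Sham. The B and NK levels are read as background. In T cells, 15 of 18 Il1b UMIs in SCI and 16 of 35 in Sham lay in 4 barcodes of each library. Those barcodes had 2 or more neutrophil marker UMIs. Such T barcodes held 0 of 15 Il1b UMIs in MSC-i.t and 6 of 24 in MSC-i.v.

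Il1b RNA was held by few monocytes. In classical monocytes, 50% of its UMIs lay in 7 of 60 barcodes in SCI, 7 of 122 in MSC-i.t, 8 of 392 in MSC-i.v and 6 of 334 in Sham. The single highest barcode held 6 of 41 UMIs in SCI, 8 of 71 in MSC-i.t, 37 of 168 in MSC-i.v and 32 of 210 in Sham. Without that barcode the level was 68.8 CPM in SCI, 59.0 in MSC-i.t, 53.3 in MSC-i.v and 62.8 in Sham. The highest Sham barcode had 15048 UMIs in all, of which 11 were of neutrophil markers. Classical monocyte barcodes with 2 or more neutrophil marker UMIs had Il1b at 101 CPM in SCI, 107 in MSC-i.t, 54.9 in MSC-i.v and 93.8 in Sham. Those with 0 or 1 had 65.6, 39.8, 73.1 and 59.3 CPM in the same order. This split was chosen after seeing the data, and the part of neutrophil RNA in these levels was not tested. The concentration was less marked for Nlrp3, whose UMIs were 50% held by 9 of 60 barcodes in SCI, 18 of 122 in MSC-i.t, 50 of 392 in MSC-i.v and 44 of 334 in Sham.

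**Figure D1:**
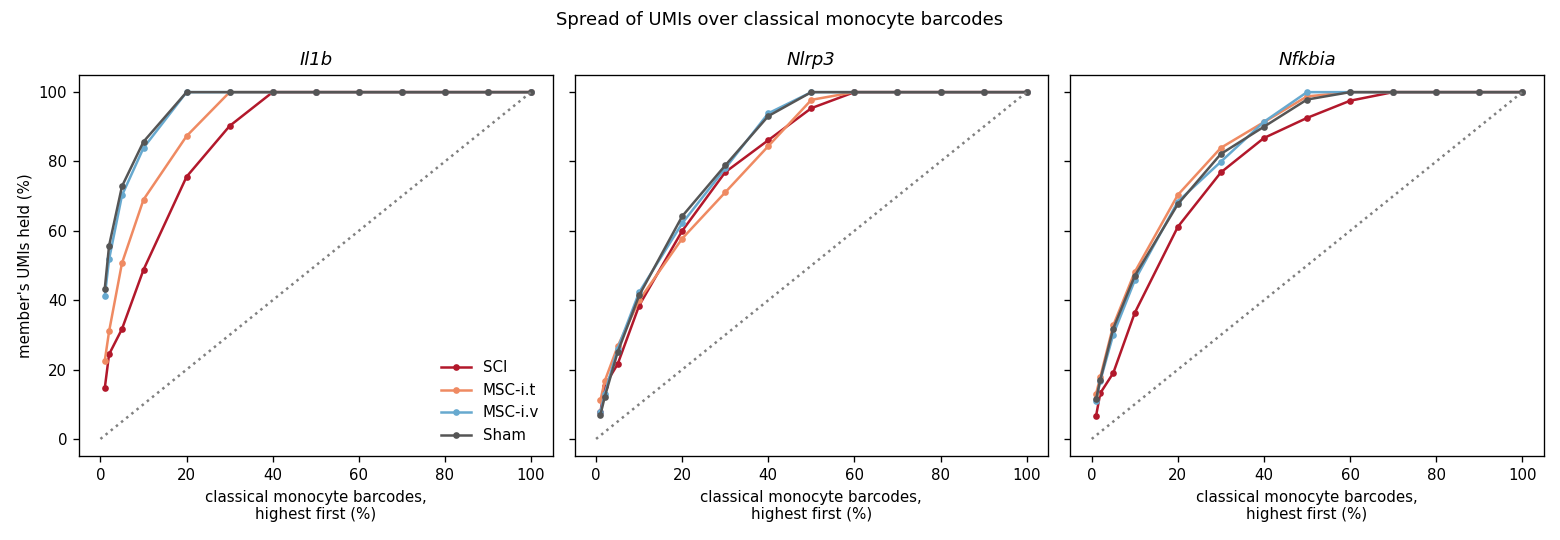
Cumulative share of UMIs (y axis, percent) held by classical monocyte barcodes ranked from the highest down (x axis, percent of barcodes) for Il1b, Nlrp3 and Nfkbia; a line per library, and the dotted line marks an even spread. The highest 10% of barcodes held 48.8% of Il1b UMIs in SCI, 69.0% in MSC-i.t, 83.9% in MSC-i.v and 85.7% in Sham, and 38.5% to 42.3% of Nlrp3 UMIs.

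At a matched depth Il1b was seen in a like share of classical monocytes in the 4 libraries. When each barcode was thinned to 2000 UMIs, Il1b was seen in 12.1% of classical monocyte barcodes in SCI (7 of 58, 4.99 to 23.3%), 9.35% in MSC-i.t, 8.14% in MSC-i.v and 8.23% in Sham (26 of 316, 5.45 to 11.8%). Unthinned, the shares were 36.7%, 27.9%, 17.1% and 19.2% in the same order of libraries, whose median depths in this class were 8778.5, 8931.5, 6058.5 and 7978.5 UMIs. Thinning left out 2 barcodes in SCI, 15 in MSC-i.t, 11 in MSC-i.v and 18 in Sham. In nonclassical monocytes the thinned shares were 6.90% in SCI, 10.9% in MSC-i.t, 7.87% in MSC-i.v and 7.11% in Sham. In erythroid barcodes, those with over 50% of UMIs from hemoglobin genes, the thinned share was 0.261% or less in each library. Most of their 2000 thinned UMIs are hemoglobin by that definition, so this share is not a like background for the monocyte shares. After thinning, Il1b was seen in 16.0% of Sham classical monocytes with an Nfkbia UMI (12 of 75) and in 5.81% of those without (14 of 241). The share was higher beside an Nfkbia UMI in both monocyte classes of every library except SCI nonclassical monocytes, where it was 5.95% with and 8.20% without. Beside an Nlrp3 UMI, Il1b was seen in 16.7% of SCI classical monocytes (2 of 12, against 10.9% without), 15.0% in MSC-i.t (3 of 20, against 8.05% without) and 9.68% in MSC-i.v (6 of 62, against 7.84% without). In Sham it was seen in 0 of 47, which allows a share of up to 6.38%, against 9.67% of the 269 without. In nonclassical monocytes the shares with and without an Nlrp3 UMI were 6.25% against 6.98% in SCI, 10.0% against 11.0% in MSC-i.t, 11.9% against 7.44% in MSC-i.v, and 11.5% against 6.61% in Sham. Neither direction was shared by all sums, and most rest on few barcodes.

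Nlrp3, the sensor that assembles an inflammasome, was a monocyte gene in these libraries. In classical monocytes its level was 125 CPM (96.7–160) in SCI, 83.7 (67.3–103) in MSC-i.t, 99.8 (87.7–113) in MSC-i.v and 81.5 (71.3–92.7) in Sham. The SCI value was the highest and its interval did not overlap that of Sham. Barcodes were also split by neutrophil marker UMIs, a split chosen after seeing the data. The 20 of 60 SCI barcodes with 2 or more held 36 of the 65 Nlrp3 UMIs, at 181 CPM (127–251). Nlrp3 was at 90.1 CPM in 37 MSC-i.t, 89.1 in 92 MSC-i.v and 82.9 in 119 Sham barcodes of that kind. Among barcodes with 0 or 1 neutrophil marker UMI it was at 90.6 CPM (60.7–130) in SCI and 79.5 (59.4–104) in MSC-i.t. In MSC-i.v it was at 104 CPM (89.4–120) and in Sham at 80.4 (67.4–95.3), and these 4 intervals overlapped. The part of neutrophil RNA in these levels was not tested. In nonclassical monocytes it was 53.9 CPM in SCI, 44.8 in MSC-i.t, 48.7 in MSC-i.v and 40.3 in Sham, with overlapping intervals. Classical monocytes had 2.32-fold the nonclassical level in SCI, 1.87-fold in MSC-i.t, 2.05-fold in MSC-i.v and 2.02-fold in Sham, and all 4 intervals lay above an equal level. B, T and NK levels were 2.24 CPM or lower in every library. They lay below the Nlrp3 level of RNA outside cells, which was 2.17 CPM in SCI, 0.884 in MSC-i.t, 5.06 in MSC-i.v and 3.22 in Sham, and are read as background.

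The regulators showed another order of cell classes. Nfkbia encodes I-kappa-B alpha, the inhibitor that retains NF-kB in the cytoplasm. It was highest in nonclassical monocytes, at 605 CPM (547–667) in SCI, 376 (338–417) in MSC-i.t, 402 (371–435) in MSC-i.v and 372 (338–409) in Sham. The SCI interval lay above those of the other 3 libraries, which overlapped each other. In classical monocytes it was 233 CPM (193–279) in SCI, 151 in MSC-i.t, 138 in MSC-i.v and 148 (134–163) in Sham, again with SCI above the rest. Among classical monocytes with 0 or 1 neutrophil marker UMI it was 222 CPM (173–280) in SCI, against 140 (122–159) in Sham, without overlap. Classical monocytes had 0.34- to 0.40-fold the nonclassical level in the 4 libraries, the opposite of the order seen for Il1b and Nlrp3. B cells had 178 CPM in SCI, 157 in MSC-i.t, 142 in MSC-i.v and 144 in Sham. T cells had 82.4, 79.4, 73.5 and 70.8 CPM in the same order, and NK cells 77.1, 89.2, 76.2 and 83.0 CPM. B cells stood 1.93- to 2.16-fold above T cells, whereas T and NK cells did not differ beyond counting error in any library. RNA outside cells held Nfkbia at 48.0 to 59.2 CPM, not far below the T and NK levels. Erythroid barcodes held it at 1.64 to 3.37 CPM, a share of totals that are mostly hemoglobin and so not a like measure of background. The part of RNA outside cells in the T and NK levels was not tested.

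Nfkbiz encodes I-kappa-B zeta, a nuclear member of the inhibitor family that takes part in switching on secondary targets. In nonclassical monocytes it was 44.9 CPM (30.3–64.1) in SCI, 65.6 (50.4–83.9) in MSC-i.t, 37.8 (28.8–48.8) in MSC-i.v and 52.3 in Sham. MSC-i.t was the highest library and its interval cleared only that of MSC-i.v. Classical monocytes had 27.0, 21.4, 20.3 and 16.5 CPM in SCI, MSC-i.t, MSC-i.v and Sham, T cells 10.4, 9.48, 7.96 and 10.5 CPM, and B cells 4.74, 5.72, 4.34 and 5.97 CPM. B cells were below T cells in all 4 libraries beyond counting error. Tnfaip3, whose product A20 removes ubiquitin marks and damps NF-kB signalling, was sparse. It had 316 UMIs in all, of which 224 were in T cells, at 2.19 CPM (1.73–2.73) in SCI, 1.74 (1.37–2.17) in MSC-i.t, 0.731 (0.482–1.06) in MSC-i.v and 1.35 (0.973–1.83) in Sham. MSC-i.v was lowest, below SCI and MSC-i.t without overlap. In B cells Tnfaip3 was 2.45 to 3.41 CPM, and in monocytes it had 17 UMIs over all libraries.

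Of the subunits, Nfkb1 was present in every class and stood highest in SCI in each of them. Its product p105 is cut to p50, a partner in the classical NF-kB dimer. In T cells, where the counts were largest, Nfkb1 was 90.8 CPM (87.8–94.0) in SCI, 62.9 (60.5–65.3) in MSC-i.t, 53.9 (51.6–56.4) in MSC-i.v and 58.3 (55.7–61.1) in Sham. The SCI interval did not overlap any other, and MSC-i.v and Sham overlapped each other. B cells had 156 CPM in SCI, 112 in MSC-i.t, 89.6 in MSC-i.v and 107 in Sham, and NK cells 139, 73.9, 90.7 and 83.0 CPM. Nonclassical monocytes had 244 CPM in SCI, 198 in MSC-i.t, 172 in MSC-i.v and 178 in Sham, and classical monocytes 170, 157, 134 and 138 CPM. Nonclassical monocytes were the highest class and T cells the lowest or, in MSC-i.t, level with NK cells within counting error. RNA outside cells had Nfkb1 at 45.1 CPM in SCI, 41.8 in MSC-i.t, 47.6 in MSC-i.v and 42.7 in Sham. Erythroid barcodes had it at 1.99, 1.83, 1.41 and 2.83 CPM in the same order. SCI was the highest library in neither. The erythroid totals are mostly hemoglobin, so those levels also depend on hemoglobin content. The part of a shift of the whole SCI library in the Nfkb1 levels was not tested.

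Nfkb2 encodes p100, which is processed to p52 in the alternative branch. In B cells it was 43.0 CPM (36.3–50.6) in SCI, 34.7 in MSC-i.t, 31.7 (28.0–35.9) in MSC-i.v and 34.8 (30.2–39.9) in Sham. T cells had 5.23, 5.39, 5.01 and 5.37 CPM in the same order, nearly level across libraries. B cells stood 8.21-fold above T cells in SCI, 6.43-fold in MSC-i.t, 6.34-fold in MSC-i.v and 6.48-fold in Sham. Nonclassical monocytes had 50.9 CPM (35.3–71.2) in SCI, 42.7 in MSC-i.t, 33.3 in MSC-i.v and 25.7 (17.4–36.7) in Sham, and classical monocytes 44.3, 28.8, 31.2 and 27.4 CPM. B cells and the 2 monocyte classes did not differ beyond counting error in any library, and NK cells lay between B and T cells at 11.2 to 13.7 CPM. Relb encodes the partner of p52. In B cells it was 6.22 CPM (3.85 to 9.51; 21 UMIs) in SCI, 2.13 (13 UMIs) in MSC-i.t, 3.97 (32 UMIs) in MSC-i.v and 1.71 (0.819 to 3.14; 10 UMIs) in Sham. In T cells it was 1.5, 1.03, 1.16 and 1.06 CPM, and it had at most 9 UMIs in any monocyte or NK sum.

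**Figure D2:**
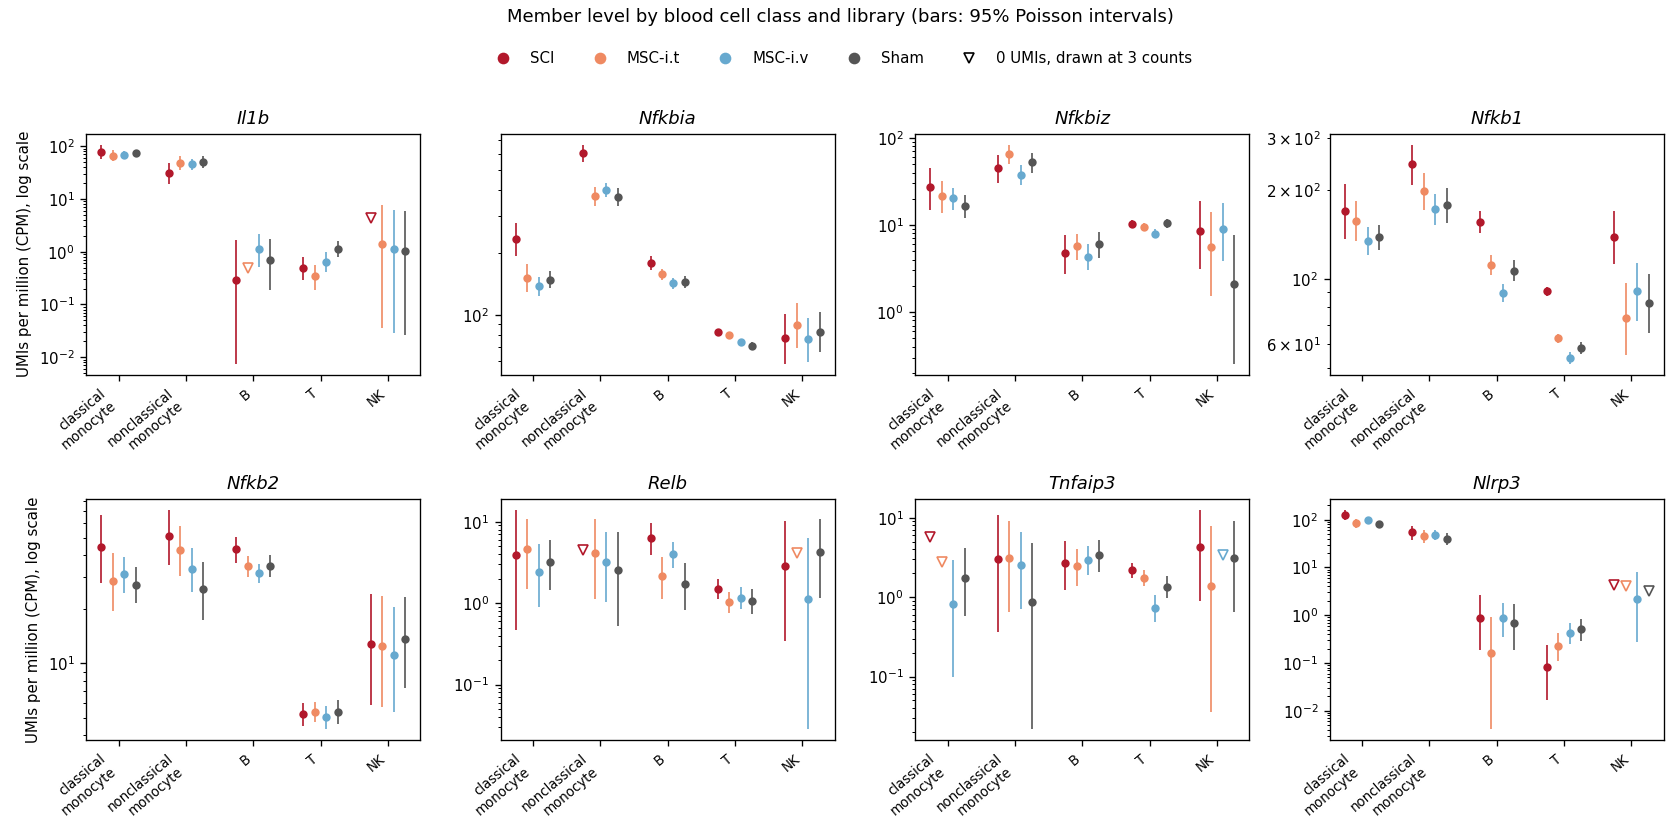
Level of 8 members (y axis, CPM on a log scale) in the 5 gated classes (x axis), with a point per library in the order SCI, MSC-i.t, MSC-i.v and Sham; bars are 95% Poisson intervals, and open triangles mark 0 UMIs, drawn at 3 counts. Il1b and Nlrp3 are high in both monocyte classes alone, Nfkbia peaks at 605 CPM in SCI nonclassical monocytes, and Nfkb1 is highest in SCI in every class.

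The share of all counted molecules told where each gene's RNA lay. Classical monocytes held 36.5% of the Il1b UMIs of kept barcodes and nonclassical monocytes 14.7%. A further 22.5% lay in barcodes with monocyte markers together with markers of other cells, which the gates leave out, and 6.94% in ungated barcodes with neutrophil markers. For Nlrp3 the shares were 45.1%, 14.4%, 30.2% and 1.42%. The T gate, by far the largest, held 51.3% of Nfkbia, 57.3% of Nfkb1, 59.3% of Nfkbiz and 61.9% of Tnfaip3 UMIs. Nfkb2 was split between B cells, with 31.4%, and T cells, with 29.9%.

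**Figure D3:**
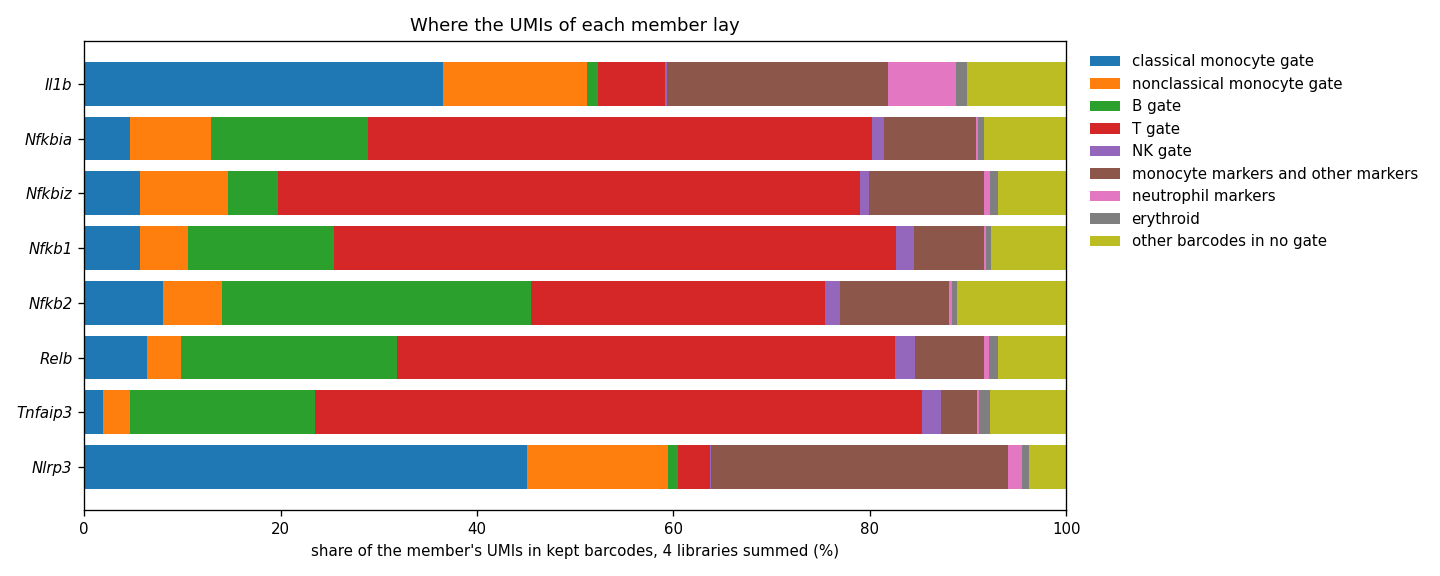
Share of each member's UMIs in kept barcodes (x axis, percent, 4 libraries summed) by gate or ungated kind of barcode (colours). Monocyte barcodes hold most of the Il1b and Nlrp3 molecules, and T cells most of those of Nfkbia, Nfkb1, Nfkbiz, Relb and Tnfaip3.

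SCI was set against Sham to ask which members differ with injury. Nfkb1 in T, B and NK cells and nonclassical monocytes, and Nfkbia in both monocyte classes, B cells and T cells, were higher in SCI beyond counting error, in each case by less than 2-fold. Ratios were read for member and class pairs with at least 20 UMIs over both libraries, which 28 pairs had. Of these, 1 was at least 2-fold higher in SCI than in Sham, against 6.6% of all gene and class pairs, and 1 was at least 2-fold lower, against 2.71%. Those shares of members are near the background. The interval lay above an equal level in 12 of the 28 pairs, against 21.5% of all gene and class pairs, and below it in 1, against 6.46%. Whether an interval clears an equal level depends on the number of UMIs as well as on the ratio, and the UMI counts of members and of all genes were not matched. The median log2 ratio of the 28 pairs was 0.36, against 0.12 over all genes. The median of all genes was itself above 0, between 0.07 and 0.16 in the 5 classes.

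Nfkb1 was higher in SCI by a log2 ratio of 0.64 (0.56 to 0.72) in T cells, 0.55 (0.38 to 0.72) in B cells, where plasma cell markers were also higher, 0.74 (0.30 to 1.19) in NK cells and 0.46 (0.15 to 0.76) in nonclassical monocytes. In classical monocytes the ratio was 0.30 (-0.05 to 0.63), an interval that includes an equal level. Relative to the median gene of each class these became 0.52 in T, 0.41 in B and 0.63 in NK cells, 0.30 in nonclassical and 0.22 in classical monocytes. Over all alternatives, of which 1 leaves hemoglobin RNA out of the class total, the T cell ratio ranged from 0.52 to 0.65. The T cell ratio stood at the 88.7th percentile of all genes of that class. In erythroid barcodes, whose totals are mostly hemoglobin, the Nfkb1 ratio was -0.51 (-1.51 to 0.41) and in RNA outside cells 0.08 (-0.32 to 0.47). Nfkbia was higher by 0.70 (0.50 to 0.90) in nonclassical and 0.66 (0.35 to 0.95) in classical monocytes, where allowing no marker UMI of another class gave 1.5. It was 0.30 in B cells, 0.22 (0.14 to 0.30) in T cells and -0.11 (-0.63 to 0.41) in NK cells. After thinning, 57.9% of SCI nonclassical monocytes (49.5 to 66.1%) had an Nfkbia UMI, against 46.2% in Sham, with overlapping intervals. In ungated barcodes that mixed monocyte and other markers, Nfkbia was at 426 CPM in SCI, against 240 CPM in Sham. Nfkbia was higher in nonclassical than in classical monocytes, and the part of each class in these mixed barcodes was not tested. The gates held 154 nonclassical and 60 classical barcodes in SCI, against 262 and 334 in Sham.

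Nlrp3 was higher in SCI classical monocytes by 0.62 (0.20 to 1.02), and by 0.38 without barcodes that carried platelet RNA. As given above, the SCI and Sham levels overlapped among barcodes with 0 or 1 neutrophil marker UMI. Il1b in the same cells was at 0.10 (-0.42 to 0.59). In nonclassical monocytes Il1b was at -0.66 (-1.46 to 0.08) and Nlrp3 at 0.42 (-0.25 to 1.08). Nfkb2 in nonclassical monocytes was at 0.98 (0.23 to 1.74), just under the 2-fold mark, on 34 UMIs in SCI and 30 in Sham. Tnfaip3 in T cells was at 0.70 (0.14 to 1.27). The pair at least 2-fold higher was Relb in B cells, at 1.87 (0.72 to 3.12), on 21 UMIs in 20 barcodes in SCI and 10 UMIs in 10 barcodes in Sham. The pair at least 2-fold lower was Il1b in T cells, at -1.17 (-2.08 to -0.32), and this rests on very few barcodes. Of its 18 SCI UMIs, 12 were in 1 barcode, and of its 35 Sham UMIs 16 were in 1 barcode. T barcodes with 2 or more neutrophil marker UMIs, 4 in SCI and 4 in Sham, held 15 of the SCI and 16 of the Sham UMIs. Without barcodes that carried platelet RNA the ratio was -0.05. Nfkbiz showed no difference beyond counting error in any class.

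**Figure D4:**
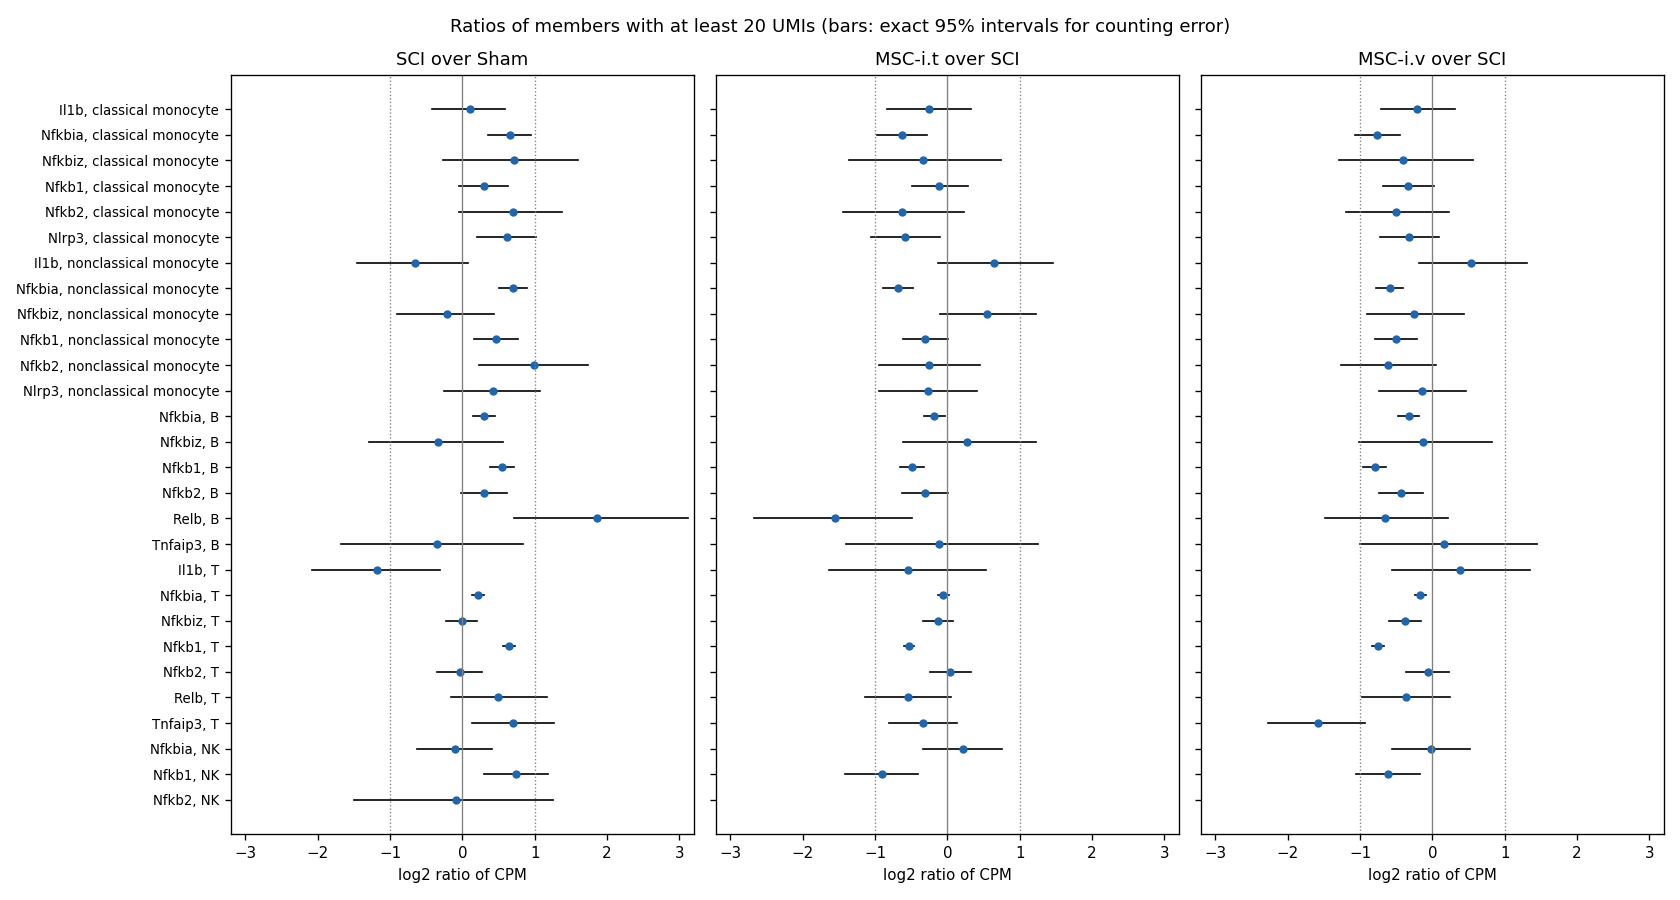
Log2 ratio of CPM (x axis) for each member and class with at least 20 UMIs (y axis) in SCI over Sham, MSC-i.t over SCI and MSC-i.v over SCI; points are ratios, bars exact 95% intervals for counting error, and dotted lines mark 2-fold. Nfkb1 and Nfkbia lie right of 0 in SCI over Sham, except Nfkbia in NK cells, and the Nfkb1 points lie left of 0 in both MSC comparisons; the SCI library enters all 3 panels.

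The treated groups were set against injured rats without transplanted cells to ask what differs after the transplanted cells. MSC-i.t over SCI had 27 pairs with enough counts, of which 0 were at least 2-fold higher, against 1.71% of all pairs, and 1 was at least 2-fold lower, against 7.08%. The lower one was Relb in B cells (log2 -1.55, -2.67 to -0.48). Intervals lay below an equal level in 8 of the 27 pairs, against 21.8% of all pairs, and above it in 0, against 6.67%. Nfkb1 was lower in MSC-i.t, with log2 ratios of -0.53 (-0.60 to -0.46) in T cells, -0.48 in B cells and -0.91 (-1.42 to -0.41) in NK cells. So was Nfkbia, with -0.69 (-0.90 to -0.48) in nonclassical and -0.63 in classical monocytes. The remaining pairs below an equal level were Nlrp3 in classical monocytes (-0.58, -1.06 to -0.10), where barcodes with 0 or 1 neutrophil marker UMI had overlapping levels (79.5 CPM in MSC-i.t, against 90.6 CPM in SCI), and Nfkbia in B cells (-0.18).

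MSC-i.v over SCI also had 27 such pairs, with 0 at least 2-fold higher, against 2.16% of all pairs, and 1 at least 2-fold lower, against 7.11%. That pair was Tnfaip3 in T cells (-1.58, -2.27 to -0.94), on 27 UMIs in MSC-i.v and 79 in SCI. Intervals lay below an equal level in 11 of the 27 pairs, against 29.4% of all pairs, and above it in 0, against 4.47%. Nfkb1 was lower in MSC-i.v, with log2 ratios of -0.75 (-0.83 to -0.67) in T cells, -0.80 in B cells, -0.61 in NK cells and -0.50 in nonclassical monocytes. Nfkbia was at -0.59 in nonclassical and -0.76 in classical monocytes, -0.33 in B and -0.17 in T cells, and the other pairs below an equal level were Nfkb2 in B cells (-0.44) and Nfkbiz in T cells (-0.38). The median gene of MSC-i.v over SCI was at -0.26 in B and -0.23 in T cells, so Nfkbia in T cells was no lower than the median gene. Over the alternatives Nfkbia ranged from -0.40 to -0.04 in B cells and took both signs in T cells, from -0.19 to 0.06. Il1b did not differ beyond counting error from SCI in either treated library in any class with enough counts. The median of all genes was below 0 in both comparisons, at -0.11 over all pairs for MSC-i.t and -0.21 for MSC-i.v. Both comparisons and that with Sham share the SCI library, so they are not independent of each other.

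The treated groups were also set against Sham. MSC-i.t over Sham had 29 pairs, with 0 at least 2-fold higher, against 1.05% of all pairs, and 2 at least 2-fold lower, against 2.33%. These were Il1b (-1.72) and Nlrp3 (-1.17, -2.47 to 0.06) in T cells, both below the level of RNA outside cells. In Sham, 16 of the 35 Il1b UMIs lay in 4 T barcodes with 2 or more neutrophil marker UMIs. In MSC-i.t, 5 such T barcodes held 0 of 15. T barcodes with 0 or 1 had Il1b at 0.343 CPM (0.192–0.565) in MSC-i.t, against 0.612 CPM (0.368–0.955) in Sham, with overlapping intervals. Intervals lay above an equal level in 3 of the 29 pairs, against 6.99% of all pairs, and below it in 1, against 6.77%. Those above were Nfkb1 (0.11, 0.02 to 0.19) and Nfkbia (0.16) in T cells and Nfkb2 in nonclassical monocytes (0.73, 0.02 to 1.46). Nfkbia in nonclassical monocytes was at 0.01 (-0.19 to 0.22). MSC-i.v over Sham had 29 pairs, with 1 at least 2-fold higher, against 0.94% of all pairs, and 0 at least 2-fold lower, against 1.88%. The higher one was Relb in B cells (1.22, 0.16 to 2.41). Intervals lay above an equal level in 2 pairs, against 4.36% of all pairs, and below it in 5, against 14.1%. Besides Relb, the pair above was Nlrp3 in classical monocytes (0.29, 0.03 to 0.56), at 99.8 CPM in MSC-i.v, against 81.5 CPM in Sham. Of the pairs below, Nfkb1 in B cells was at -0.25 and Il1b in T cells at -0.79. The Il1b ratio took both signs over the alternatives, from -1.08 to 0.18. T barcodes with 0 or 1 neutrophil marker UMI had Il1b at 0.488 CPM (0.289–0.771) in MSC-i.v, against 0.612 CPM (0.368–0.955) in Sham, with overlapping intervals. In T cells Nfkb1 was at -0.11 (-0.21 to -0.02), Nfkbiz at -0.39 (-0.63 to -0.16) and Tnfaip3 at -0.89 (-1.64 to -0.15). The median gene of MSC-i.v over Sham was at -0.09 in T cells, near the Nfkb1 ratio there, and at -0.12 in B cells.

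The routes of delivery were compared with each other directly, at doses that differ as given above. MSC-i.t over MSC-i.v had 28 pairs, with 1 at least 2-fold higher, against 1.62% of all pairs, and 0 at least 2-fold lower, against 2.17%. Tnfaip3 in T cells was the higher one (1.25, 0.60 to 1.94). Nfkbiz in nonclassical monocytes was higher by 0.79 (0.26 to 1.33), and Nfkb1 by 0.22 in T cells and 0.32 in B cells. Intervals lay above an equal level in 7 of the 28 pairs, against 17% of all pairs, and below it in 0, against 5.61%. Some sparse pairs were lower in MSC-i.t, near the 2-fold mark but within counting error. Over the alternatives the log2 ratio ranged from -1.17 to -0.60 for Relb in B cells. In T cells it ranged from -1.09 to -0.82 for Il1b and from -1.49 to -0.80 for Nlrp3. The median log2 ratio over all pairs was 0.09. Il1b and Nlrp3 in monocytes did not differ between the routes beyond counting error.

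A wider list of 70 genes of the pathway and the inflammasome was read in the same way for SCI over Sham. In classical monocytes 4 of 51 genes with enough counts were at least 2-fold higher and 4 lower, against 6.88% and 5.07% of all genes. The highest were Traf3, an adaptor of the alternative branch (log2 1.95), and Otulin, which cuts linear ubiquitin chains (1.42), and the lowest were the DNA sensor Aim2 (-1.24) and the kinase Map3k14 (-1.21), which had 2 and 3 UMIs in SCI. In nonclassical monocytes 4 of 48 were higher and 0 lower, against 7.45% and 1.52%, led by Bcl3, a nuclear inhibitor family member (1.33), and Otulin (1.23). The lowest there were the chemokine gene Ccl3 (-0.86, -1.35 to -0.39) and the kinase Tbk1 (-0.59). In B cells 2 of 54 were higher and 0 lower, against 6.41% and 1.89%, with Otulin (2.06) and Traf4 (1.0) highest and Nfkbid (-0.75) and Sod2 (-0.68) lowest. In T cells 3 of 56 were higher and 0 lower, against 6.09% and 2.68%, with Otulin (2.0) and Traf4 (1.34) highest and Cd40 (-0.76) and Tlr2 (-0.41) lowest. In NK cells 1 of 36 was higher and 0 lower, against 6.67% and 2.41%, with Otulin (1.44) and Chuk (0.90) highest and Irak4 (-0.74) and Zfp36 (-0.48) lowest. Otulin was the gene at least 2-fold higher in all 5 classes, and it was also at 60.8 CPM in the RNA outside cells of SCI, against 11.8 CPM in Sham. The median log2 ratio of the list was 0.17, 0.22, 0.17, 0.10 and 0.12 in classical monocytes, nonclassical monocytes, B, T and NK cells, against 0.07, 0.16, 0.13, 0.12 and 0.11 over all genes. In MSC-i.t over SCI, 0 genes of the list were at least 2-fold higher in any class, against 1.07% to 3.5% of all genes by class. At least 2-fold lower were 2 of 42 in classical and 2 of 46 in nonclassical monocytes, 3 of 54 in B, 4 of 57 in T and 1 of 32 in NK cells, against 5.4% to 8.57% of all genes. In MSC-i.v over SCI, 4 of 47 in classical and 1 of 49 in nonclassical monocytes, 1 of 55 in B, 3 of 56 in T and 0 of 32 in NK cells were higher, against 1.36% to 3.8% of all genes. In the same order of classes 2, 6, 3, 3 and 2 were lower, against 6.43% to 7.81% of all genes.

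The genes whose level followed a member most closely were sought among 9757 genes over the 20 library and class sums, by Pearson's r of log2(CPM + 1). Those sums share libraries and cell classes, so r mainly follows the classes and is given as a description. Among the genes most like Il1b were Tifab (r = 0.989) and Tnfsf13 (0.989), and Nlrp3 was most like Pld1 (0.993), Lilrb3a (0.993) and Clec7a (0.990). Nfkbia was most like P2ry10 (0.976), Efnb2 (0.974) and Fbn1 (0.966), and Nfkbiz most like Icam2 (0.943), G0s2 (0.940) and Casp1 (0.939). For Nfkb1 these included Ier5 (0.964) and Nmt1 (0.950), and for Nfkb2 Tor1aip1 (0.973), Sh3glb1 (0.971) and Lyn (0.970). Relb, with Rab43 (0.823), Rufy3 (0.787) and Chka (0.738), and Tnfaip3, with Thoc3 (0.820), Zfhx2 (0.804) and Celf2 (0.799), had weaker matches on fewer UMIs.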

How the data were processed

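Blood from 4 groups of rats was measured by droplet single-cell RNA-seq, 1 library per group. The authors deposited UMI counts per gene and barcode as sparse matrices of 25340 genes and 6794880 barcodes, with no barcode removed. Per the file headers, Cell Ranger 4 made them. The submitters' processing notes name mRatBN7.2 as the genome build. The labels' extraction protocol describes a bulk RNA preparation and does not match these matrices. The aligner settings and the library kit are not given in the sources used here.

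Barcodes with at least 500 UMIs and 200 genes were gated on marker UMIs: at least 2 for T and for B cells, 3 for NK cells and 4 for monocytes. At most 1 UMI of another class was allowed, with exceptions. The NK gate allowed 0 T marker UMIs, and the monocyte gate up to 2 NK marker UMIs. The T gate set no limit on NK marker UMIs, which were at 142 to 198 CPM in it. The T, B and NK gates set no limit on the nonclassical monocyte marker Fcgr3a. Doublets were handled by these exclusions alone, with no doublet caller. For each class of a library, gene sums over its barcodes were divided by all its UMIs. Levels have exact Poisson intervals and ratios exact conditional binomial intervals, shares of barcodes have Clopper-Pearson intervals, all at 95%. Ratios were counted as at least 2-fold apart for pairs with at least 20 UMIs over both libraries. A count of 0 is given an upper limit of 3 counts. The ratio code was tested on simulated data with known folds.

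All members were named. In each class the 2 highest and 2 lowest genes of the wider list in SCI over Sham were named, and for each member the 3 genes with the highest correlation, of which some are not reported here. The members, the markers and the wider list were chosen with earlier results of these data known. Barcodes left out by the gates made up 18.5% to 25.0% of those kept. A class of a library held 60 to 8585 barcodes. Small sums limit precision, above all in SCI classical monocytes, with 518933 UMIs. Alternatives were other gates, filters, denominators and minimum counts, and scaling by TMM (edgeR 4.0.16 in R 4.3.3). Computing used numpy 2.4.6, scipy 1.17.1, pandas 2.3.3 and matplotlib 3.10.9.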

Additional observations from a re-analysis of the deposited data

Results flagged for a closer look

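Several members had a higher level than in Sham among barcodes that no gate held, with intervals that did not overlap. Nfkbia, the inhibitor gene, was at 426 CPM in SCI, against 240 CPM in Sham in barcodes that mixed monocyte markers with those of other cells, 128 barcodes in SCI and 360 in Sham. In the other ungated barcodes Nfkbia was at 131 CPM in both MSC-i.t and MSC-i.v, against 108 CPM in Sham. Nfkb1 was at 124 CPM in SCI, against 78.8 CPM in Sham there, which is the direction seen in the gated classes. Nfkb2 was at 23.9 CPM in MSC-i.t, against 14.2 CPM in Sham. Il1b was at 18.8 CPM in MSC-i.v, against 6.63 CPM in Sham, and Nlrp3 at 7.55 CPM in MSC-i.v, against 2.70 CPM in Sham. Only levels above Sham are listed here, and no share of all genes is given beside them. The cells behind these barcodes were not named, and the makeup of these barcodes in each library was not tested.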

How the results depend on the processing

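No value called at least 2-fold apart changed sign under any alternative run. Of the single ratios, 1778 stayed within their interval and 70 did not. Of the counts of pairs at least 2-fold apart, 123 stayed within 1.5 times and 33 did not. All these counts are between 0 and 4, so 1 pair decides them. Requiring 2 more marker UMIs gave 2 higher in SCI over Sham and 1 lower in MSC-i.t over MSC-i.v. Allowing no marker UMI of another class gave 4 higher in SCI over Sham, 2 lower in MSC-i.t over SCI, 1 higher in MSC-i.v over SCI, 2 higher and 1 lower in MSC-i.t over Sham, and 2 higher and 1 lower in MSC-i.v over Sham. Without barcodes above the 98th percentile of UMIs, 0 were lower in SCI over Sham, 1 in MSC-i.t over Sham and 1 in MSC-i.t over MSC-i.v. Without barcodes with platelet RNA, 0 were lower in SCI over Sham, 3 in MSC-i.v over SCI, 1 in MSC-i.t over Sham, 1 in MSC-i.v over Sham and 1 in MSC-i.t over MSC-i.v. For MSC-i.t over MSC-i.v, 1 was lower with hemoglobin, mitochondrial, ribosomal and immunoglobulin genes out of the denominator, 3 after centring on the median gene and 3 with TMM. The causes were not tested.

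A minimum of 5 UMIs, which admits sparser pairs, gave 3 higher and 3 lower in SCI over Sham, 1 higher in MSC-i.t over SCI, 2 higher in MSC-i.v over SCI, 1 higher in MSC-i.t over Sham, 3 higher and 2 lower in MSC-i.v over Sham, and 2 lower in MSC-i.t over MSC-i.v. A minimum of 50, which leaves fewer pairs, gave 0 higher in SCI over Sham, 0 lower in MSC-i.t over SCI, 1 lower in MSC-i.t over Sham and 0 higher in MSC-i.v over Sham. Leaving out each member's highest barcode, added after seeing the data, gave 1 higher in MSC-i.v over SCI.

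For SCI over Sham, the log2 ratio of Nfkb1 ranged over the alternatives from 0.52 to 0.65 in T cells, 0.40 to 0.60 in B cells, 0.61 to 0.86 in NK cells, 0.27 to 0.50 in nonclassical and 0.15 to 0.85 in classical monocytes. Nfkbia ranged from 0.44 to 0.70 in nonclassical and 0.51 to 1.5 in classical monocytes, Nlrp3 from 0.38 to 0.69 in classical monocytes, and Relb from 1.72 to 1.98 in B cells. Il1b took both signs in classical monocytes, from -0.11 to 0.86, and ranged from -2.59 to -0.05 in T cells. With no marker UMI of another class allowed, SCI classical monocytes held 149770 UMIs, and ratios there are imprecise. No paired analysis was possible because each group has 1 library.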

Other observations

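Il1b was also counted in ungated barcodes with at least 5 neutrophil marker UMIs, of which the libraries hold few. In MSC-i.t, 2 such barcodes held 26 Il1b UMIs, 543 CPM (355 to 795), and in Sham 8 barcodes held 67, 675 CPM (523 to 858). In MSC-i.v, 8 such barcodes held 0 UMIs, and in SCI 1 barcode held 0. In Sham the Il1b UMIs lay in 4 of the 8 barcodes.

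Otulin, which encodes a deubiquitinase that trims linear ubiquitin chains and so limits NF-kB signalling, stood further from Sham in SCI than any member. It was at 86.8 CPM in SCI, against 21.7 CPM in Sham T cells (log2 2.0, 1.88 to 2.12), and at 118 CPM in SCI, against 28.2 CPM in Sham B cells (2.06, 1.80 to 2.33). In erythroid barcodes, whose totals are mostly hemoglobin, it was at 0.569 CPM in SCI, against 0.383 CPM in Sham. In RNA outside cells it was at 60.8 CPM in SCI, 13.8 in MSC-i.t, 13.4 in MSC-i.v and 11.8 in Sham. Traf4, an adaptor of the TRAF family, was at 20.5 CPM in SCI, against 8.10 CPM in Sham T cells (1.34, 1.13 to 1.55).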
